A study of Bos taurus with 18 samples.

Results

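Linker and replacement histone genes were followed through bovine oocytes and early embryos, with the oocyte linker histone H1FOO set against somatic linker and replacement histones. Of 9 genes listed for this purpose, 6 that are row names of the deposited expression table are described: H1FOO, H2AFZ, H2AFX, H2AFY, H3F3B and HIST1H2BN. H1FX and H3F3A are not row names and were not analysed here under those names. The table holds 21668 genes, of which 17138 had at least 1 read in at least 3 libraries and were tested. All 6 histone genes were among them. H1FOO had reads in 17 of 18 libraries and each of the other 5 genes in all 18.

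Core histones H2A, H2B, H3 and H4 form the nucleosome, and linker histone H1 binds the DNA where it enters and leaves the nucleosome. Most histone genes are expressed with DNA replication and give mRNAs that end in a stem-loop in place of a poly(A) tail, whereas replacement histones are made throughout the cell cycle from mostly polyadenylated mRNAs and are placed into chromatin independently of replication. Mammalian oocytes carry an oocyte-specific linker histone, H1FOO (named H1-8 in RefSeq), which somatic linker histones take over from during early development.

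The libraries came from 6 stages with 3 pools each, and per the labels' protocols a pool held 10 oocytes or embryos. Germinal vesicle (GV) oocytes were denuded before maturation and metaphase II (MII) oocytes after maturation in vitro, both of the German Simmental breed. Embryos of 4, 8 and 16 cells and blastocysts were fertilised and cultured in vitro and were a German Simmental x Brahman cross, fertilised with semen of 1 Zebu bull. Breed therefore changed together with stage between MII and the 4-cell embryo, and these cannot be told apart there. The same holds for every comparison of embryos with oocytes, such as blastocysts against GV oocytes. All oocytes were collected from abattoir ovaries, and embryos were selected by eye. By its title, the series maps the time of genome activation in the bovine embryo.

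Recovered reads in genes ranged from 2438473 to 11971840 per library, over 11970 to 15399 genes with reads. Levels are given as scaled counts, the recovered reads divided by the library's size factor. Depending on the library, 1 read equals between 0.563 and 2.82 scaled counts. The scale is relative to the other RNA of the same library, so fewer cells of a type and less RNA per cell cannot be told apart. Without gene lengths the levels of different genes were not compared. Differences between stages are those of the deposited variance-stabilised values, which are close to log2 for well covered genes, with the standard error from limma. A rise or fall means a Benjamini-Hochberg adjusted p under 0.05 over all genes tested. Nothing in the labels says that the pools came from separate collection days, so p-values measure the spread between pools. The 8-cell replicate 2 and 16-cell replicate 1 libraries stood apart, with 12393 and 11970 genes with reads and the lowest limma array weights, 0.304 and 0.31.

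The labelled stages were checked with marker genes. The 9 oocyte markers (GDF9, BMP15, ZP2, ZP3, ZP4, NLRP5, OOEP, FIGLA and ZAR1) were all in the table, and their summed scaled count was 68409 to 95776 in GV oocytes and 136 to 272 in blastocysts. The 8 trophectoderm and epithelial markers summed to 861 to 1128 in GV oocytes and to 25653 to 54408 in blastocysts, where KRT8 averaged 19587 and KRT18 13818, while ATP1B1 went from 98.4 in GV oocytes to 5.2. From GV oocytes to blastocysts GATA3 went from 77.8 to 887, AQP3 from 114 to 1275 and GATA2 from 633 to 1013. CDX2 averaged 145 at the 8-cell stage and 144 in blastocysts, and TFAP2C 5538 at the 16-cell stage and 3407 in blastocysts. The 17 cumulus and granulosa cell markers summed to 3534 to 4672 in GV oocytes, 2693 to 4528 at the 8-cell stage, 698 to 1676 at the 16-cell stage and 6933 to 17564 in blastocysts, where PTGS2 alone averaged 10672. FOXL2, a defining granulosa gene, was at 0 before the blastocyst, and FSHR averaged 32.6 in GV oocytes and 0 in MII oocytes. Other genes of that list were higher in GV and MII oocytes, with means of 1665 and 1430 for STAR, 848 and 955 for VCAN, 729 and 1082 for HAS2, and 680 and 911 for PTGS2. The 5 sperm markers summed to at most 3.67 in oocyte libraries, to at most 47.8 in 8-cell libraries and to 77.4 to 1028 in blastocysts.

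Over the 6 stages all 6 histone genes differed (limma F test), where 67% of all genes tested did. The genes fell into separate courses. H1FOO and H2AFX had their highest means in oocytes and their lowest in blastocysts. H2AFZ, H2AFY and HIST1H2BN rose between the 4-cell and the 8-cell stage and fell again towards the blastocyst. H3F3B stayed within a narrower range. The 6 genes together took 0.204% ± 0.0837 of the reads in GV oocytes, 0.148% ± 0.0434 at the 4-cell, 0.371% ± 0.0441 at the 8-cell and 0.42% ± 0.146 at the 16-cell stage, and 0.131% ± 0.0178 in blastocysts (SD, n = 3 each). H2AFZ alone was 0.193% of reads at the 8-cell stage and 0.224% at the 16-cell stage.

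**Figure D1:**
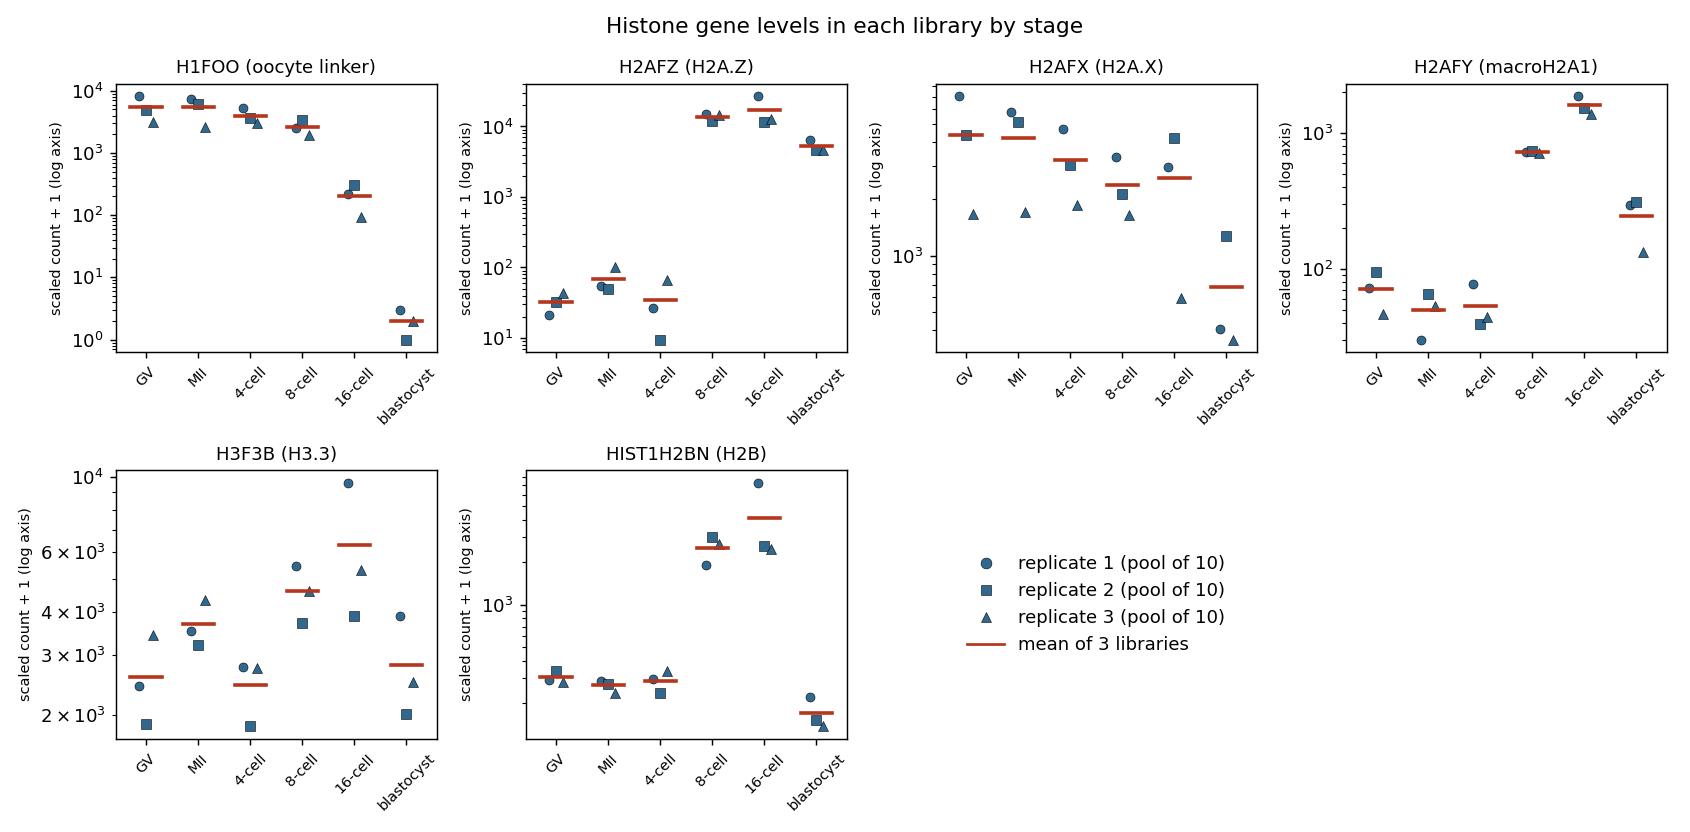
Scaled count plus 1 on a log axis for each histone gene, in each of the 18 libraries; symbols are the 3 pools of a stage and the line is their mean. H1FOO drops from a mean of 2608 at the 8-cell stage to 204 at the 16-cell stage, while H2AFZ climbs from 33.2 at the 4-cell stage to 13796 at the 8-cell stage.

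H1FOO was high in oocytes and nearly gone in blastocysts. Its scaled counts were 8287, 4877 and 3088 in GV oocytes, 7430, 6194 and 2661 in MII oocytes, and 5261, 3617 and 3083 in 4-cell embryos. The 8-cell libraries had 2480, 3410 and 1935 and the 16-cell libraries 217, 305 and 90.9. In blastocysts they were 2, 0 and 0.968, from 4 reads in all. The libraries of the 4 earliest stages overlapped from each stage to the next, whereas every 16-cell library lay below every earlier library and above every blastocyst library.

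In order, the H1FOO means were 5428 ± 2475 in MII oocytes, 5417 ± 2641 in GV oocytes, 3987 ± 1135 in 4-cell, 2608 ± 746 in 8-cell, 204 ± 108 in 16-cell embryos and 0.989 ± 1 in blastocysts (SD, n = 3 each). From the 8-cell to the 16-cell stage H1FOO fell 12.8-fold, a difference of -3.77 ± 0.48 (limma, adjusted p = 1.5e-05). Towards the blastocyst it fell by 5.68 ± 0.48 (adjusted p = 2.5e-08), and its blastocyst and GV levels differed by -10.42 ± 0.48 (adjusted p = 1.2e-12). With 4 blastocyst reads the sizes of both depend on the scale: with log2(scaled count + 8) they were -4.41 and -9.13, and with voom -7.23 and -11.99. The earlier step from the 4-cell to the 8-cell stage, -0.61 ± 0.48, was not called (adjusted p = 0.49). The 3 H1FOO falls were called under every alternative setting tried and without each library of both stages, with adjusted p of at most 0.033.

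The summed oocyte markers moved with H1FOO, at 31868 to 60549 before that fall, in 8-cell embryos, and 4790 to 12038 after it, and their part in the result was not tested. The 3 named genes whose deposited values followed H1FOO most closely over the 18 libraries were ACCSL (Pearson r = 0.990), NLRP9, a member of an NLR family with several oocyte-expressed genes (r = 0.988), and PPEF2 (r = 0.987). The r values are a description, taken over libraries that share 6 stages. NLRP9 averaged 13627 in GV oocytes, 5158 at the 8-cell stage, 876 at the 16-cell stage and 8.74 in blastocysts, and PPEF2 went from 505 in 8-cell to 75.1 in 16-cell embryos.

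The other linker histone rows were 9, of which 7 passed the filter and 5 differed over the stages (limma F test), where 67% of all genes did. They are all given, a choice made after their values were seen, except for H1-1, which the rule for named genes took. H1-1, a replication-dependent somatic linker histone listed by a locus number, averaged 8537 in GV oocytes, 16380, 12487 and 3275 at the 4-cell, 8-cell and 16-cell stages, and 82.6 in blastocysts. It fell at the same steps as H1FOO, with differences of -2.23 ± 0.44 to the 16-cell stage (adjusted p = 0.0007) and -4.94 ± 0.44 to the blastocyst (adjusted p = 4.2e-08). H1-5 went the other way and rose by 4.08 ± 0.80 to the 8-cell stage (adjusted p = 0.0012) and by 3.00 ± 0.80 to the 16-cell stage (adjusted p = 0.0071), with means of 1.32, 67.9 and 543 in 4-cell, 8-cell and 16-cell embryos. Its blastocyst minus 16-cell difference of -1.61 ± 0.80 was not called by limma (adjusted p = 0.14). Among the 7 linker rows voom called 4 falls at that step, against 3 with limma, and which row voom added is not given here. The unadjusted limma p at that step was 0.057 for H1-5 and 0.022 for HIST1H1D.

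HIST1H1C averaged 1304 in GV oocytes, 648 in 8-cell and 2059 in 16-cell embryos and 442 in blastocysts. It rose by 1.64 ± 0.46 from the 8-cell to the 16-cell stage (adjusted p = 0.0097) and fell by 2.14 ± 0.46 to the blastocyst (adjusted p = 0.0011). Its blastocyst minus GV difference was -1.55 ± 0.46 (limma, adjusted p = 0.0085). H1-4 averaged 2634 in GV oocytes and 360 in blastocysts, a difference of -2.85 ± 0.41 (limma, adjusted p = 8.7e-06). From the 16-cell stage to the blastocyst H1-4 fell by 1.44 ± 0.41 (adjusted p = 0.0098). H1-10, the current name of the gene once called H1FX, averaged 0.235 in GV oocytes, 8.17 in 16-cell embryos and 32.2 in blastocysts. It was higher in blastocysts than in GV oocytes by 3.20 ± 0.75 (limma, adjusted p = 0.0015). The GV mean of H1-10 came from 1 read in all, and its blastocyst libraries were uneven, at 10, 78.9 and 7.74. No step of H1-10 between neighbouring stages was called by limma. HIST1H1D was not called by limma in any of the 6 comparisons (adjusted p = 0.079 by the F test), and HIST1H1E did not differ by the F test. H1FNT and H1-9, linker histones of male germ cells, had 0 reads. Of the 7 tested linker rows, 2 rose and 3 fell between GV oocytes and blastocysts, where 25.6% of all genes rose and 20.4% fell.

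**Figure D2:**
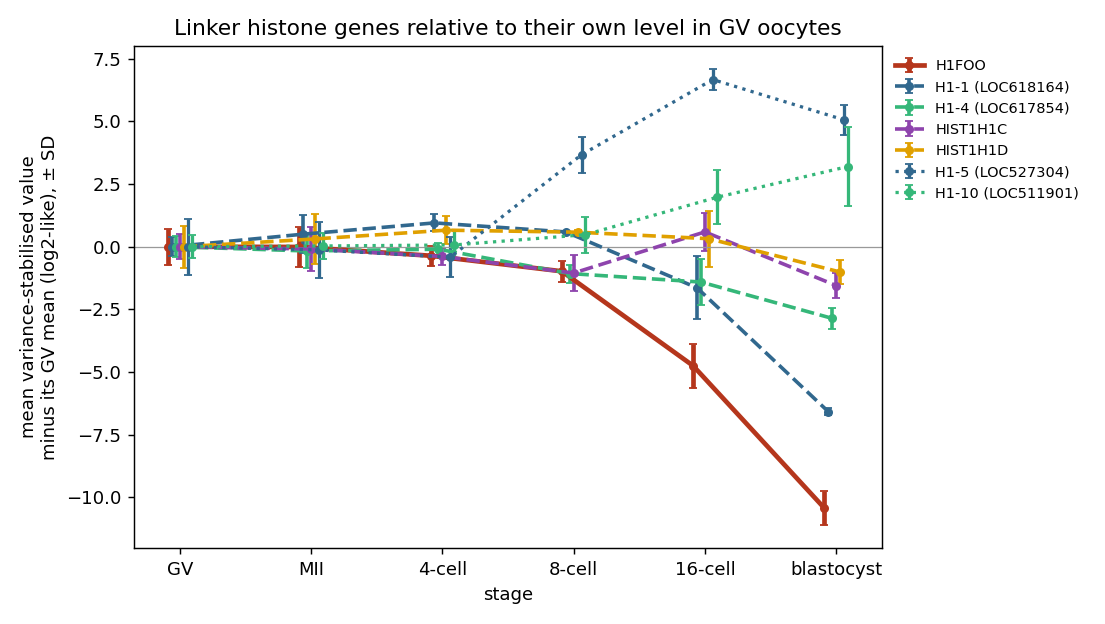
Mean variance-stabilised value of 7 linker histone genes (HIST1H1E, with means of at most 15.3 scaled counts, is not drawn) minus its own mean in GV oocytes (log2-like scale), by stage; bars are the SD of 3 libraries. H1FOO and H1-1 end lowest, with blastocyst differences of -10.42 and -6.59, and H1-5 and H1-10 lie above their GV level in blastocysts.

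H2AFZ, which RefSeq names H2AZ1, encodes the variant H2A.Z found at promoters and enhancers. It was scarce until the 4-cell stage, with scaled counts of 19.9, 31.1 and 42.5 in GV oocytes, 53.8, 48.1 and 102 in MII oocytes and 25.9, 8.46 and 65.3 in 4-cell embryos. The 8-cell libraries stood at 15184, 11845 and 14360, the 16-cell libraries at 27219, 11463 and 12715, and the blastocysts at 6506, 4667 and 4703. The lowest library from the 8-cell stage on was far above the highest library before it.

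The rise of H2AFZ from the 4-cell mean of 33.2 ± 29.1 to the 8-cell mean of 13796 ± 1740 (SD, n = 3 each) was 415-fold, a difference of 8.86 ± 0.49 (limma, adjusted p = 6.7e-11). It was the largest rise among the 6 genes at that step. It was called under every alternative setting tried, and without both libraries that stood apart it was 8.97 ± 0.52 (adjusted p = 1.4e-09). From the 16-cell stage to the blastocyst H2AFZ fell 3.24-fold, a difference of -1.60 ± 0.49 (adjusted p = 0.015). That fall was lost without 16-cell replicate 1 (-1.21, adjusted p = 0.091), blastocyst replicate 2 (0.058) or blastocyst replicate 3 (0.054), with array weights (0.083) and with only the libraries of both stages (0.059). It was lost too without both libraries that stood apart (-1.21, limma, adjusted p = 0.087). Blastocyst levels remained 170-fold above GV levels, a difference of 7.26 ± 0.49 (adjusted p = 2.6e-10). Between GV and MII oocytes the libraries did not overlap, but the difference of 1.01 ± 0.49 was not called (adjusted p = 0.61), nor was the 4-cell minus MII difference of -1.21 ± 0.49 (adjusted p = 0.47).

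H2AFV, the gene of a second H2A.Z protein and 1 of the 4 other histone rows with the smallest F test p, rose at the same step. The 4-cell libraries had scaled counts of 55.7, 99.3 and 77, the 8-cell libraries 918, 441 and 840 and the 16-cell libraries 2362, 1573 and 1141. It rose by 3.14 ± 0.44 to the 8-cell stage (9.48-fold, adjusted p = 3.1e-05) and by 1.21 ± 0.44 to the 16-cell stage (adjusted p = 0.041). Its blastocyst libraries, at 1654, 989 and 821, overlapped the 16-cell libraries, and the difference of -0.55 ± 0.44 was not called (adjusted p = 0.37).

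H2AFX, or H2AX, encodes the variant whose phosphorylation marks DNA breaks. Scaled counts of H2AFX were 7077, 4396 and 1667 in GV oocytes, 5816, 5124 and 1705 in MII oocytes, and 4740, 3031 and 1865 in 4-cell embryos. The 8-cell libraries had 3344, 2116 and 1652, the 16-cell libraries 2953, 4221 and 594, and the blastocysts 407, 1275 and 356. Libraries of all stages before the blastocyst overlapped, and the spread within a stage was wide.

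H2AFX was 6.45-fold lower in blastocysts (680 ± 516) than in GV oocytes (4380 ± 2705; SD, n = 3 each), a difference of -2.70 ± 0.66 (limma, adjusted p = 0.002), without overlap. The fall from the 16-cell stage to the blastocyst, -1.77 ± 0.66 (adjusted p = 0.045), came with overlapping libraries and was called under only 4 of 12 other settings. Of these 4, the replicate number as a block gave the lowest adjusted p, 0.0026, and the others 0.034 to 0.049. The fall was also lost without 16-cell replicate 1 (0.15), 16-cell replicate 2 (-1.21, adjusted p = 0.21), blastocyst replicate 1 (0.16) or blastocyst replicate 3 (0.18). Without both libraries that stood apart it was -1.47 and not called (limma, adjusted p = 0.15). Without 16-cell replicate 3 the difference was -2.62. Replicate 3 had the lowest H2AFX value of its stage in 6 of 6 stages, which held for 0.84% of all genes tested. It had the lowest H1FOO value in 5 of 6 stages, where 3.71% of all genes were lowest in at least 5. Whether the libraries numbered 3 share a cause for these values was not tested.

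H2AFY, named MACROH2A1 in RefSeq, encodes a large H2A variant with a macro domain, known for its place on the inactive X chromosome. Its scaled counts were 71.1, 93.3 and 45.5 in GV oocytes, 29, 64.5 and 52.4 in MII oocytes, and 75.9, 38.4 and 43.1 in 4-cell embryos. The 8-cell libraries reached 721, 732 and 711, the 16-cell libraries 1882, 1530 and 1392, and the blastocysts stood at 294, 310 and 133. The 8-cell, 16-cell and blastocyst libraries overlapped neither each other nor any oocyte or 4-cell library.

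The H2AFY rise to the 8-cell stage was 13.7-fold, from 52.5 ± 20.5 to 721 ± 10.1 (SD, n = 3 each), a difference of 3.74 ± 0.45 (limma, adjusted p = 4.8e-06). The next step, 1.13 ± 0.45, was not called (adjusted p = 0.06) although the libraries did not overlap. It was called with log2(scaled count + 8) (0.042), without the filter (0.043), with only the libraries of both stages (0.037) and with voom (0.0078). From the 16-cell stage to the blastocyst H2AFY fell 6.52-fold, a difference of -2.77 ± 0.45 (adjusted p = 7.5e-05), and blastocysts kept 3.51 times the GV level (1.71 ± 0.45, adjusted p = 0.0036). Its relative H2AFY2, which encodes macroH2A2, was at 23.4 ± 11.1 in blastocysts, with 129 in 8-cell replicate 2 and at most 15.2 in each of the other libraries before the blastocyst. It did not differ by the F test (adjusted p = 0.11), and blastocysts against GV oocytes alone gave 3.33 ± 1.17 (adjusted p = 0.024).

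H3F3B is 1 of the genes of the replacement histone H3.3, which is placed at active genes and into the paternal genome after fertilisation. Scaled counts of H3F3B were 2431, 1878 and 3435 in GV oocytes, 3518, 3203 and 4335 in MII oocytes and 2764, 1849 and 2748 in 4-cell embryos. The 8-cell libraries had 5489, 3731 and 4622, the 16-cell libraries 9619, 3905 and 5336, and the blastocysts 3889, 2017 and 2492. In the order of stage means, from 6287 ± 2973 at the 16-cell stage down to 2453 ± 524 at the 4-cell stage (SD, n = 3 each), every stage overlapped with the next.

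The 1 called change of H3F3B between neighbouring stages was a 2.25-fold fall from the 16-cell stage to the blastocyst, a difference of -1.12 ± 0.33 (limma, adjusted p = 0.012). That fall was lost without 16-cell replicate 1 (-0.76, adjusted p = 0.091), without blastocyst replicate 2 (0.075), with array weights (0.063), without the variance trend (0.052) and with only the libraries of both stages (0.15). It was lost too without both libraries that stood apart (-0.76, limma, adjusted p = 0.078). The 8-cell libraries all lay above the 4-cell libraries, and the difference of 0.92 ± 0.33 was not called (adjusted p = 0.074). It was called with array weights (0.02), quantile normalization (0.038), voom (0.034) and without both libraries that stood apart (1.06, adjusted p = 0.024). Blastocysts and GV oocytes differed by 0.11 ± 0.33 (adjusted p = 0.82). Replicate 2 had the lowest H3F3B value of its stage in 6 of 6 stages, which held for 0.251% of all genes tested.

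The genes that followed H3F3B most closely over the 18 libraries were SSB, which encodes the La RNA-binding protein (r = 0.921), ATG3, an enzyme of autophagy (r = 0.894), and MBIP (r = 0.873). H3F3C, another row named as an H3.3-type gene, averaged 51.6 in GV oocytes, 88.2 in 16-cell embryos and 31.5 in blastocysts and was not called between any of these neighbouring stages. H3-3D had 0 reads. Reads of H3F3B may be shared with near-identical copies, because how the authors counted reads that match several places is not given in the sources used here. The same limit holds for the other histone rows, and reads from opposite strands could not be told apart.

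HIST1H2BN is named as a replication-dependent H2B gene. The name is an older symbol of 2 RefSeq genes, H2BC15 and H2BC12, so which of them the row measures was not settled. Scaled counts of HIST1H2BN were 291, 340 and 284 in GV oocytes, 288, 275 and 237 in MII oocytes, and 296, 234 and 336 in 4-cell embryos. The 8-cell libraries had 1912, 3024 and 2684, the 16-cell libraries 7335, 2586 and 2468, and the blastocysts 219, 150 and 136. The 8-cell and 16-cell libraries overlapped each other and lay above all others, and all blastocyst libraries lay below all oocyte and 4-cell libraries.

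HIST1H2BN rose 8.81-fold to the 8-cell stage, from 288 ± 51.4 to 2540 ± 570 (SD, n = 3 each), a difference of 3.11 ± 0.38 (limma, adjusted p = 5.2e-06). It fell 24.5-fold from the 16-cell stage to the blastocyst, a difference of -4.41 ± 0.38 (adjusted p = 2.5e-08). Without both libraries that stood apart these differences were 2.97 ± 0.32 (adjusted p = 2.6e-06) and -3.90 ± 0.32 (adjusted p = 6.3e-08). Blastocysts against GV oocytes, -0.86 ± 0.38, were not called (adjusted p = 0.066), but were called with array weights (0.012), with quantile normalization (0.012), with only the libraries of both stages (0.034) and without blastocyst replicate 1 (0.044). Leaving out both libraries that stood apart gave a call as well (-0.86, limma, adjusted p = 0.017).

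**Figure D3:**
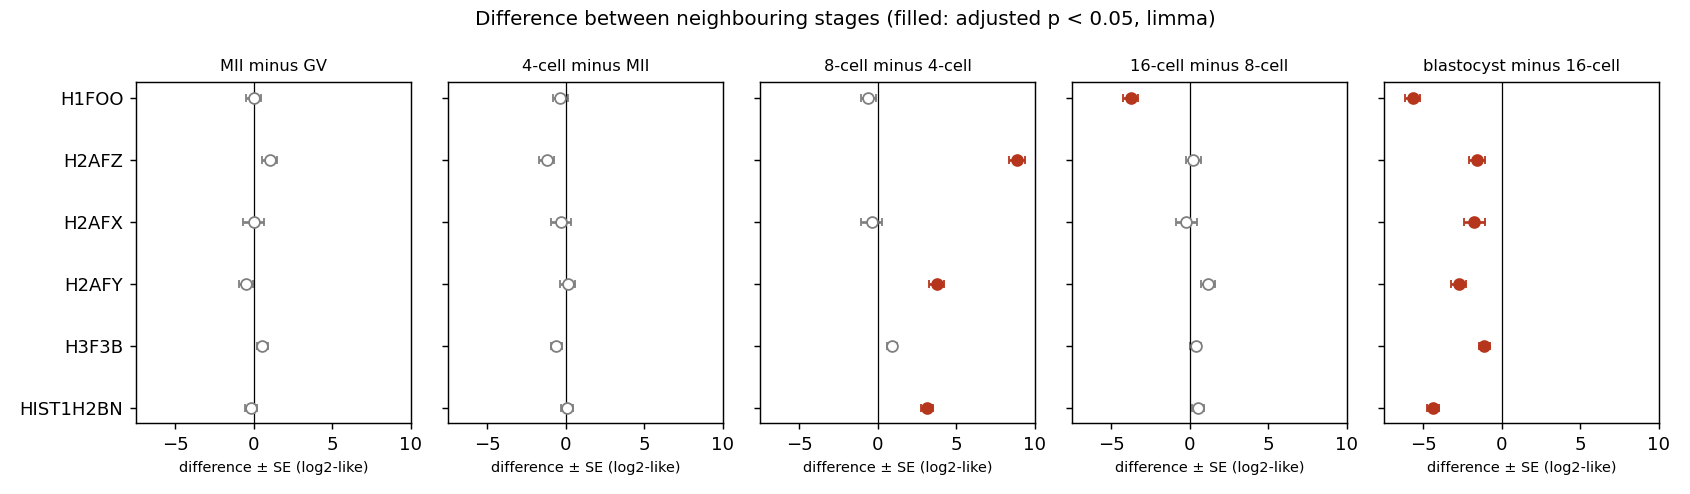
Difference between neighbouring stages of the variance-stabilised values (log2-like) for each histone gene, with the standard error from limma; filled points have an adjusted p under 0.05. No point is filled in the first 2 comparisons, 3 genes rise to the 8-cell stage, 1 falls to the 16-cell stage and 6 fall to the blastocyst.

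Counted by step, 0 of the 6 genes were called between GV and MII oocytes, where 0.712% of all genes were, and 1 had libraries that did not overlap, against 17.9% of all genes. Between MII and 4-cell embryos 0 of 6 were called, against 0.794%, and 1 did not overlap, against 17.8%. At each of these steps limma gave 1 gene an unadjusted p under 0.05, and voom called 0. From the 4-cell to the 8-cell stage 3 rose and 0 fell, where 8.64% of all genes rose and 4.13% fell, and 4 did not overlap, against 25.9%. An unadjusted p under 0.05 was found for 4 genes, all of them higher at the 8-cell stage, and voom called the same 4 as rises. The median difference of the 6 was 2.01, and that of all genes lay at zero to 2 decimals.

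From the 8-cell to the 16-cell stage 0 rose and 1 fell, where 14.8% of all genes rose and 16.3% fell, and 2 did not overlap, against 31.5%. Of the 2 genes with an unadjusted p under 0.05 at that step H2AFY was higher, and voom called its rise. To the blastocyst 0 rose and 6 fell, where 18.2% of all genes rose and 13.1% fell, and 5 did not overlap, against 37.1%. The 6 genes with an unadjusted p under 0.05 at that step were all lower, and voom called 5 falls and 0 rises. The median difference of the 6 at that step was -2.27, beside 0.18 for all genes. Between GV oocytes and blastocysts 2 rose and 2 fell, where 25.6% of all genes rose and 20.4% fell, and 5 did not overlap, against 56.9%. Of the 6 falls to the blastocyst, those of H1FOO, H2AFY and HIST1H2BN were called under every setting tried and without each library of both stages.

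The table holds 62 other histone rows, found by symbol or by RefSeq name, and 55 passed the filter. They moved in both directions. By the F test 33 of the 55 differed over the stages, where 67% of all genes did. At the first 2 steps limma and voom called 0, with 0 and 1 rows at an unadjusted p under 0.05. To the 8-cell stage 9 rose (16.4%) and 0 fell, to the 16-cell stage 10 rose (18.2%) and 6 fell (10.9%), and to the blastocyst 1 rose (1.82%) and 14 fell (25.5%). To the 8-cell stage 2 rows had an unadjusted p under 0.05 and were lower, and voom called 0 falls there. The shares of all genes that rose and fell were 8.64% and 4.13%, 14.8% and 16.3%, and 18.2% and 13.1% at these steps. The median difference of the 55 at the last step was -1.19, beside 0.18 for all genes. By class, 9 of 18 H2A rows, 9 of 16 H2B rows, 4 of 7 H3 rows, 6 of 6 H4 rows and 0 of 1 macroH2A row differed by the F test. Between GV oocytes and blastocysts 14 of the 55 rows rose and 15 fell, where 25.6% of all genes rose and 20.4% fell. Of the H4 rows 3 rose and 3 fell. Some H4 means were low, such as 5.74 and 0 for H4C16 and 1.37 and 12.9 for H4C4 in GV oocytes and blastocysts.

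The 4 rows with the smallest F test p held H2AFV and H1-1, described above, and 2 H2B genes. H2BC18, listed by a locus number, averaged 9270 ± 1408 in GV oocytes and had 15862, 15918 and 15789 at the 8-cell stage, 2779, 3174 and 1036 at the 16-cell stage and 46, 142 and 41.6 in blastocysts. Its difference was -2.92 ± 0.38 to the 16-cell stage, a fall (adjusted p = 1.9e-05), and -4.91 ± 0.38 to the blastocyst, again a fall (adjusted p = 8e-09). H2BC11 took another course, with 1 read in all over the 9 oocyte and 4-cell libraries and scaled counts of 49.2, 67.2 and 184 at the 8-cell stage and 300, 387 and 191 at the 16-cell stage. Its rise to the 8-cell stage was called (adjusted p = 4.9e-05), with no fold because the 4-cell libraries were at 0, and it fell 10.2-fold to the blastocyst (adjusted p = 0.0015). Of the replacement rows beyond these, taken after their values were seen, H2AFJ had at most 2.82 scaled counts before the blastocyst and 84.6, 87.6 and 43.6 in blastocysts. Its rise to the blastocyst was 4.57 ± 0.63 (adjusted p = 1.2e-05).

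**Figure D4:**
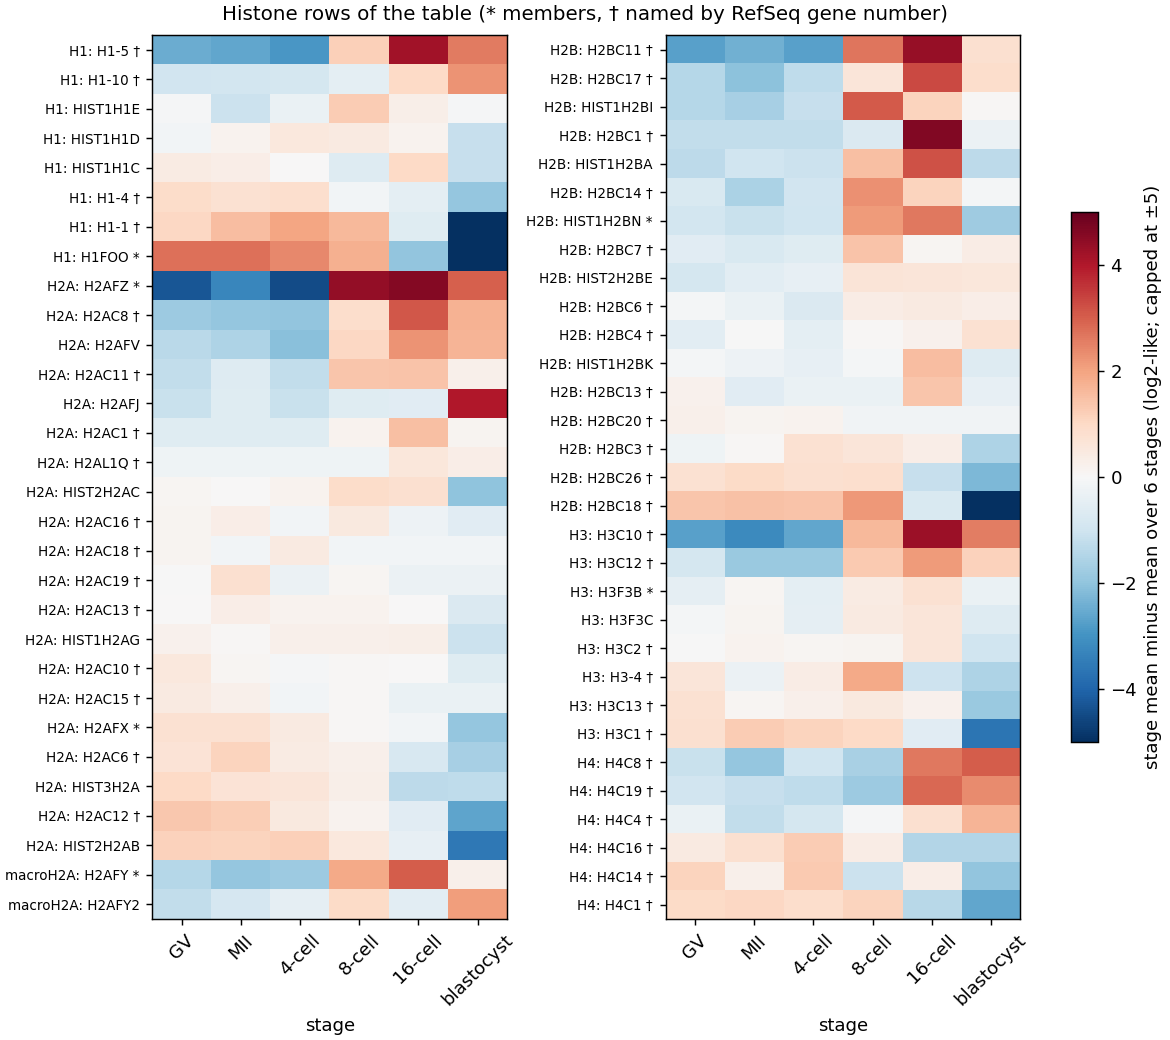
Stage mean of each tested histone row minus its mean over the 6 stages (log2-like scale, colour capped at ±5), by histone class; red is higher and blue lower than the row's own mean. Some rows, such as H2BC18, are highest up to the 8-cell stage, and others, such as H2BC11, at the 16-cell stage.

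Histone proteins are escorted by chaperones and exchanged by remodelling complexes, and replication-dependent histone mRNAs need their own 3' end processing. Of 58 listed gene names with such roles, 53 were in the table and all of these were tested. The names SRCAP, TONSL, ERI1, SLBP2 and SPT2D1 had no row, while SPTY2D1, also listed, had a row. By the F test 43 of 53 differed, where 67% of all genes did. At the first step 5 genes had an unadjusted p under 0.05, limma called 0 after adjustment and voom made 1 call. At the second step 1 gene had such a p and both tools made 0 calls. To the 8-cell stage 6 rose (11.3%) and 3 fell (5.66%), to the 16-cell stage 11 rose (20.8%) and 7 fell (13.2%), and to the blastocyst 6 rose (11.3%) and 14 fell (26.4%). Of all genes 8.64% rose and 4.13% fell at the first of these steps, 14.8% and 16.3% at the next, and 18.2% and 13.1% at the last. The median differences of the 53 were -0.09, 0.63 and -0.52, beside zero to 2 decimals at the first 2 of these steps and 0.18 at the last for all genes.

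At the step where H2AFZ rose, MCM2, a helicase subunit that also binds H3 and H4, rose by 1.54 ± 0.34 (adjusted p = 0.0036). SET, a histone chaperone and inhibitor of acetylation, rose by 1.30 ± 0.34 to the 8-cell stage (adjusted p = 0.012) and by 1.54 ± 0.34 to the 16-cell stage (adjusted p = 0.0018), and fell by 2.34 ± 0.34 to the blastocyst (adjusted p = 2.2e-05). RBBP7, an H4-binding subunit of several chromatin complexes, fell by 1.75 ± 0.31 to the 8-cell stage (adjusted p = 0.0005), from 11441 to 3347 scaled counts. CSTF2, a cleavage stimulation factor used on histone mRNA too, fell by 2.62 ± 0.47 at the same step (adjusted p = 0.00057).

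At the step where H1FOO fell, NPM2, the oocyte nucleoplasmin that acts on sperm chromatin, fell by 5.46 ± 0.80 (adjusted p = 5.2e-05). Unlike H1FOO, NPM2 had gone down before without overlap at any step, though no earlier step was called by limma. NPM2 means were 3276 in GV oocytes, 1019 in MII oocytes, 576 at the 4-cell and 226 at the 8-cell stage. Its scaled counts went from 364, 177 and 138 in 8-cell embryos to 0, 0 and 20.4 in 16-cell embryos. ANP32E, which removes H2A.Z from chromatin, fell by 3.61 ± 0.54 at this step (adjusted p = 6.1e-05), with 2387, 2673 and 853 in 8-cell and 102, 418 and 63.1 in 16-cell embryos, and rose by 2.08 ± 0.54 to the blastocyst (adjusted p = 0.005). ANP32B, a related chaperone, rose by 2.59 ± 0.44 (adjusted p = 0.00021), to 1800 ± 226. ANP32A, of the same family, fell by 2.90 ± 0.48 to the 16-cell stage (adjusted p = 0.00016) and rose by 3.38 ± 0.48 to the blastocyst (adjusted p = 1.7e-05). At that last step SUPT16H, a subunit of the FACT complex, rose by 2.31 ± 0.41 (adjusted p = 0.00021). UBN2, a subunit of the HIRA complex that places H3.3, fell by 2.71 ± 0.30 to the blastocyst (adjusted p = 8.4e-07), from 5404 ± 1519 to 831 ± 282 (SD, n = 3 each).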

How the data were processed

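RNA of 18 pools was amplified with the NuGEN Ovation v2 kit from mixed random and poly(A) priming and sequenced as single reads on a GAIIx, per the labels' protocols. The authors deposited 1 table of log2 values after variance stabilisation; the submitters' processing notes name CASAVA 1.6, TopHat2 2.0.3, HTSeq, DESeq and the build UMD3.1. The gene annotation is not given in the sources used here, nor is the treatment of reads with several matches. Amplified reads are not independent molecules, and strand is not marked by the kit described.

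The lowest value, 1.097, was that of 0 reads. Inverting the transformation gave whole reads for all 390024 values within 1e-08, and size factors that differed from median-of-ratios factors by at most 1.2e-15 in relative terms. All 18 columns matched a sample by name.

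limma 3.58.1 in R 4.3.3 was fitted to the deposited values, with stage as the only term, over all 18 libraries, with a trend of variance on mean. Tests were two-sided, adjusted over 17138 genes. The procedure was tested on simulated data. Python 3.11.15, pandas 2.3.3 and matplotlib 3.10.9 were used otherwise. Locus numbers were matched to a RefSeq table of assembly ARS-UCD2.0, for names only: of 5890 such rows, 3678 matched.

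Named genes were the 6 histone genes, the 4 other histone rows with the smallest F test p, the 2 chaperone genes per step and direction with the smallest p, and the 3 symbols most correlated with H1FOO and H3F3B among 8465 genes with a mean scaled count of at least 50. The histone genes, lists and tests were chosen with earlier results of these data known. One further listed gene is not reported here, and the results that need it are left out. Alternatives covered the filter, pseudocount, scaling, variance model, weights, voom on recovered reads, the libraries fitted, the replicate number as a block, and each library left out in turn; leaving out both libraries that stood apart was added after seeing the data.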

Additional observations from a re-analysis of the deposited data

How the results depend on the processing

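From the 8-cell to the 16-cell stage 2 genes (main 1) were called with log2(scaled count + 8), without the filter, with only the libraries of both stages and with voom, the addition being H2AFY. From the 16-cell stage to the blastocyst 3 (main 6) were called with array weights, with only the libraries of both stages, and without 8-cell replicate 2 and 16-cell replicate 1 together. With 1 library left out, called genes numbered 0 to 0 between GV and MII, 0 to 0 to the 4-cell stage, 3 to 4 to the 8-cell stage, 1 to 2 to the 16-cell stage, 3 to 6 to the blastocyst, 4 to 5 between GV and blastocyst and 5 to 6 by the F test. Of the chaperone genes, 3 fell to the 8-cell stage with limma and 5 with voom. The cause of these shifts was not tested.

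Among single genes and settings other than leaving out 1 library, 396 differences kept their direction and call, 15 lost the call, 13 gained it and 8 changed sign. None that changed sign was called. With array weights the MII minus GV difference was 0.11 for H1FOO and 0.14 for H2AFX. With library medians set equal MII minus GV was 0.05 for H1FOO and 0.04 for H2AFX, and with voom 0.05 and 0.06. Without both libraries that stood apart, the 16-cell minus 8-cell difference was -0.29 for H2AFZ and -0.14 for H3F3B. With 1 library left out, 191 kept direction and call, 9 lost it, 1 gained it and 15 changed sign. For those with a sign change the ranges from MII minus GV were -0.36 to 0.44 for H1FOO and -0.59 to 0.55 for H2AFX. For 4-cell minus MII they were -0.87 to 0.03 for H2AFX, -0.2 to 0.33 for H2AFY and -0.02 to 0.24 for HIST1H2BN. For later steps they were -0.77 to 0.64 for H2AFX and -0.18 to 0.44 for H2AFZ to the 16-cell stage, and -0.16 to 0.33 for H3F3B between GV and blastocyst.

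The main fit did not pair the libraries by replicate number. Deviations from the stage mean correlated above 0.1 in 11 of 45 same-number pairs (median 0.04, range -0.11 to 0.20). Pairs of different numbers had a median of -0.02 (range -0.18 to 0.16), and pairs of number 3 ranged from 0.03 to 0.20. Of the 18 libraries, 14 were closest to their own number. Libraries of the same number were thus somewhat more alike, and the main p-values leave this out. Its cause was not tested. With the replicate block 4 genes were called to the 8-cell stage in place of 3, the addition being H3F3B (0.92, adjusted p = 0.017). Depth limits H1FOO in blastocysts, where 4 reads were counted.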

Other observations

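Some rows of chromatin proteins known from the male germ line were seen in embryos, and these were chosen after their values were seen. H2BC1, a testis H2B gene, had 0 reads in all 9 oocyte and 4-cell libraries and scaled counts of 298, 150 and 37.1 in 16-cell embryos against 0, 0 and 2.62 at the 8-cell stage. H2BC1 rose by 5.35 to the 16-cell stage (limma, adjusted p = 1.7e-05) and fell by 4.96 to the blastocyst (adjusted p = 1.6e-05). HIST1H2BA, a separate row under an older name of a testis H2B gene, had 22.8, 0 and 53.8 at the 8-cell stage. It had 10.1, 62.1 and 111 at the 16-cell stage and 0 reads in blastocysts, and fell by 4.48 (adjusted p = 0.00077). Whether both rows stand for separate genes was not settled. TNP1, a transition protein of spermatid chromatin, had 0 reads in the oocyte and 4-cell libraries, 47.8, 0 and 36.7 at the 8-cell stage and 170, 962 and 69.7 in blastocysts. Its rise from the 16-cell stage to the blastocyst was 6.23 (adjusted p = 7.3e-05). PRM1, a protamine, had reads in 2 of 3 blastocyst libraries, at 60.3 and 7.74, with the higher value in the library that was highest for TNP1.

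Rows of H3 and H4 that rose to the 16-cell stage, H3C10 also to the 8-cell stage, were chosen after their values were seen too. H3C10 averaged 1.5 in 4-cell, 85.2 in 8-cell and 606 in 16-cell embryos, with rises of 4.23 (adjusted p = 0.0027) and 2.65 (adjusted p = 0.03). H4C19 averaged 7.05 in 8-cell embryos and 248 in 16-cell embryos, a rise of 4.68 (limma, adjusted p = 0.0001), and 168 in blastocysts.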
